A study of Homo sapiens with 6 samples.

Results

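The clustered protocadherins are a family of cadherin-like cell surface proteins encoded by 3 neighbouring gene clusters, alpha, beta and gamma, on the long arm of human chromosome 5. The members were every gene of the deposited count table on chromosome 5 whose symbol starts with PCDHA, PCDHB or PCDHG followed by its cluster number. This gave 59 of the 56303 genes in the table, of which 16 are in the alpha cluster, 19 in the beta cluster and 24 in the gamma cluster, pseudogenes included. In GRCh38 the alpha genes lie at chr5:140786136-141012347, the beta genes at chr5:141051135-141249365 and the gamma genes at chr5:141330571-141512981.

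Each clustered protocadherin has its own first exon, called the variable exon, which encodes the cadherin repeats, the transmembrane segment and the start of the tail. Transcripts of the alpha and gamma clusters splice that exon to a set of constant exons shared by the whole cluster, which encode a common cytoplasmic end, whereas beta genes have no constant exons. Neurons are known for choosing few of these promoters per cell, for the role of CTCF and cohesin in that choice, and for using the proteins as homophilic recognition labels. MORC2 is an ATPase of chromatin that works with the HUSH complex in gene silencing, and clustered protocadherins are well known as genes under chromatin silencing in several cell types.

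The study asked how MORC2 acts on alternative splicing in colon cancer, and these libraries are its RNA-seq of SW480 cells, an established human colorectal adenocarcinoma line. The comparison was between 3 libraries labelled shCtrl, which carry a nonsilencing hairpin and a WT genotype label, and 3 libraries labelled shMORC2, with the genotype label MORC2 knockdown. Both hairpins came by lentivirus, and both lines were selected with puromycin as stable clonal lines, so that a difference between clones and an effect of the hairpin cannot be told apart. The study describes 3 replicate experiments per group, and the p-values below measure the spread between these libraries of 1 line per hairpin.

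MORC2, the targeted gene, was read at 2021, 1964 and 2007 counts in shCtrl and at 1554, 1219 and 1157 counts in shMORC2. The groups did not overlap, and MORC2 fell from 47.1 ± 1.47 to 30.5 ± 4.07 CPM (counts per 1000000 of the scaled library total, SD, n = 3 each), a log2 fold change of -0.63 (SE 0.095, edgeR quasi-likelihood test, adjusted p = 0.000216). Library totals were between 42092664 and 43434425 counts. Of the 12 colon epithelium markers, 11 passed the filter on low counts, and their summed level was 20170 to 26210 CPM in shCtrl and 19200 to 26100 CPM in shMORC2. That sum was carried by KRT8 and KRT18, and single markers went both ways: KRT20 and CDX2 rose by log2 fold changes of 0.75 (adjusted p = 0.00305) and 0.47 (adjusted p = 0.0158), and LGR5 and CEACAM5 fell by 1.103 (adjusted p = 0.00647) and 1.08 (adjusted p = 0.00265) on the log2 scale. Of 10 neuron markers, only TUBB3, MAP2 and SYP passed the filter. All 3 were called higher, by log2 fold changes of 1.11 to 1.15, where 19.9% of all genes tested were higher. The summed neuron markers went from between 58.1 and 67.6 CPM to between 128 and 148 CPM, carried by TUBB3 (means of 54.4 and 118 CPM). The defining neuronal genes ELAVL4 and STMN2 had 0 counts in every library. The other markers that failed the filter had at most 8 counts in a library, reached by NEFL (2, 0 and 0 against 8, 8 and 4, without overlap). Fibroblast markers summed to between 20.01 and 20.91 CPM against between 22.73 and 24.96 CPM, and blood cell markers to between 8.46 and 9.20 CPM against between 9.03 and 10.3 CPM. The part of these marker levels in the results on protocadherins was not tested.

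The constant exons are shown first, because they decide what a count means in the alpha and gamma clusters. The letters are those of the GRCh38 reference on the plus strand, 5′ to 3′, and capitals mark the bases that are identical between the alpha and the gamma exon of the same number, set side by side without gaps.
Alpha constant exon 1, chr5:140978949-140979007: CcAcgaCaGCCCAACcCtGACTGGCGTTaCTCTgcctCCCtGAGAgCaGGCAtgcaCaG
Gamma constant exon 1, chr5:141494807-141494865: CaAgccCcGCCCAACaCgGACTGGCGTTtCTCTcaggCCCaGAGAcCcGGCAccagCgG
Alpha constant exon 2, chr5:140982475-140982563: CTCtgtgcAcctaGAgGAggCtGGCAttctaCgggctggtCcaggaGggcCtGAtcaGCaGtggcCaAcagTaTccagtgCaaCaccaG
Gamma constant exon 2, chr5:141505393-141505481: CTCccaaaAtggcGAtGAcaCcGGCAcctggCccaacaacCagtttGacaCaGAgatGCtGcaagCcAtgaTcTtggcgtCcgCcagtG

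Both members of each pair have the same length, 59 bases for exon 1 and 89 bases for exon 2. Of these, 39 bases (66.1%) were identical in exon 1 and 29 bases (32.6%) in exon 2. In the deposited table the 2 alpha exons are listed in 15 alpha genes and the 2 gamma exons in 22 gamma genes, and the GENCODE release 44 annotation has each as coding sequence in those same numbers of genes. Constant exon 3, at chr5:141009627-141012347 in its longest form for alpha and chr5:141510947-141512981 for gamma, is listed in all of these genes too. Together the 22 gamma genes share 2181 exon bases. With further overlaps between members added to these, shared bases make up between 27.6% and 64.4% of a gene's exon bases. A read from a gamma constant exon therefore fits all 22 listed genes, and the counts given further on hold a common part in each of them.

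The promoters of the beta genes share a short string, printed here because genes that were well expressed and genes near 0 both hold it. The windows come from RefSeq (GRCh38.p14) and run from 250 bases before to 50 bases after each start site, and 47 of the 59 members had one. Within each cluster, the string of 10 letters held by most genes on either strand was looked up, and capitals mark it.
PCDHB5, chr5:141135165-141135224: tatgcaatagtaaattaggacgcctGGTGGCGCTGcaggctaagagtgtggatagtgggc
PCDHB16, chr5:141182296-141182355: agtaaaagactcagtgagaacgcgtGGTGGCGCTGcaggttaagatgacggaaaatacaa
PCDHB12, chr5:141208629-141208688: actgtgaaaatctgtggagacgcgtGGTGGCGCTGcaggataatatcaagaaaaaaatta
PCDHB2, chr5:141094530-141094589: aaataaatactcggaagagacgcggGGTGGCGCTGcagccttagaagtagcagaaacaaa
PCDHB15, chr5:141245300-141245359: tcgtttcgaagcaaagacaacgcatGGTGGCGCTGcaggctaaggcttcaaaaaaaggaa
PCDHA4, chr5:140806963-140807022: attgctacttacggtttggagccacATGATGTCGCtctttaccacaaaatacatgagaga
PCDHGA10, chr5:141412918-141412977: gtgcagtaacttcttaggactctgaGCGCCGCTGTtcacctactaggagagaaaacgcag

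GGTGGCGCTG stood in the windows of 12 of 14 beta genes and in 97 of all 35116 windows (0.276%). In those 12 genes it began between 2 and 84 bases before the start site. The alpha string ATGATGTCGC was held by 8 of 13 alpha genes and 11 windows in all (0.0313%), and the gamma string GCGCCGCTGT by 9 of the 18 gamma A and gamma B genes with a window and 46 windows in all (0.131%). None of the 3 strings occurred in the windows of the other 2 clusters. A match is a description of letters and not a bound site, and the windows of PCDHB1 and PCDHB14 lack only these letters.

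Clustered protocadherins of the beta and gamma clusters were higher in the shMORC2 libraries, and alpha genes did not pass the test. Of the 59 members, 47 passed the filter on low counts, and 32 of these 47 were higher at an adjusted p under 0.05 by the edgeR quasi-likelihood test. Over all 21005 genes tested, 19.9% were higher by the same rule. The 32 are not separate measurements, since 22 of them are gamma genes whose counts hold the same common reads. With these reads counted once, 20 members were called higher. The counts of the 15 alpha genes tested hold common reads too. All 32 had a log2 fold change of at least 1, which 4.92% of all genes tested reached with a call, and all 32 had every shMORC2 library above every shCtrl library, which held for 25.1% of all genes tested. The count of members called lower was 0, where 19.6% of all genes tested were lower. With edgeR every tested member had a log2 fold change above 0, so the count at an unadjusted p under 0.05 was 0 too. With DESeq2 the 2 members below 0 had no adjusted p, and neither reached an unadjusted p under 0.05. PCDHB3, with 8, 6 and 4 counts in shCtrl against 0, 0 and 6 in shMORC2, and PCDHB6 were lower on average. Both failed the filter, so the count of 0 does not cover them. The median log2 fold change was 2.02 for the 10 beta genes tested, 1.42 for the 22 gamma genes and 0.68 for the 15 alpha genes, against -0.0056 for all genes tested. PCDHB7 passed the filter through its shMORC2 libraries alone, so that it could be tested only because it was high there. In bulk RNA, more cells that express a gene and more RNA per cell cannot be told apart.

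**Figure D1:**
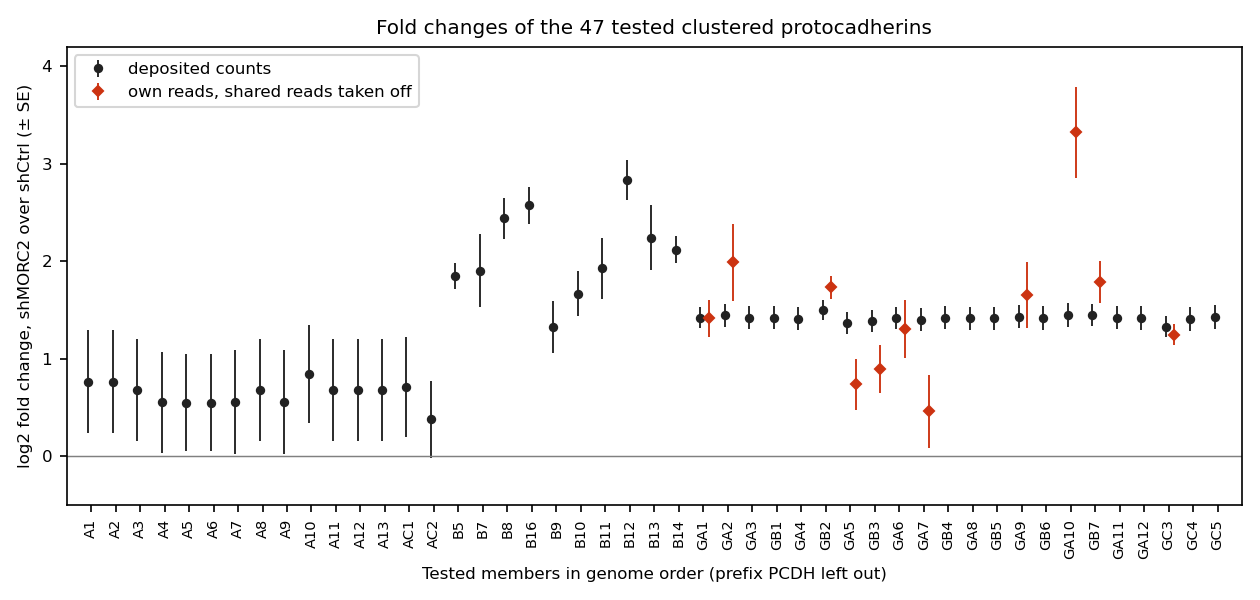
Log2 fold change of each tested member, shMORC2 over shCtrl, with bars of 1 SE, in genome order from alpha (left) to gamma (right). Black circles are the deposited counts and red diamonds the 11 gamma genes tested on their own reads. The 10 beta genes lie between 1.33 and 2.84, the 22 gamma genes on deposited counts between 1.33 and 1.501, and the gamma genes on own reads between 0.46 and 3.32.

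The beta cluster gives the clearest values, since none of its genes shares an exon with another member. Beta proteins have the extracellular cadherin repeats and the membrane segment of the family and lack the common cytoplasmic end. Their summed level was 10.97, 11.11 and 10.43 CPM in the shCtrl libraries and 44.88, 45.40 and 44.38 CPM in the shMORC2 libraries. The libraries of a group lay within about 1 CPM of each other, and the sum rose from 10.8 ± 0.361 to 44.9 ± 0.508 CPM (SD, n = 3), a log2 ratio of 2.05. All 10 beta genes that passed the filter were called higher, with no overlap between the groups. Over all genes tested, 19.9% were higher and 25.1% had every shMORC2 library above every shCtrl library. PCDHB7, among these 10, passed the filter through its shMORC2 libraries alone and adds no support to the count.

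PCDHB5 was the beta gene with most counts, with 192, 156 and 140 in shCtrl and 538, 591 and 644 in shMORC2. It rose by a log2 fold change of 1.85 (SE 0.133, adjusted p = 7.12e-07), and each shMORC2 library was well above the highest shCtrl library. PCDHB14, which lacks the shared promoter string, had 92, 102 and 83 counts against 425, 415 and 377. Its log2 fold change was 2.12 (SE 0.134, adjusted p = 3.05e-07), the smallest adjusted p among the members.

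PCDHB12 rose most among the members on deposited counts, from 22, 32 and 32 to 209, 226 and 189, a log2 fold change of 2.84 (SE 0.205, adjusted p = 7.34e-07). PCDHB16 had 28, 35 and 37 counts in shCtrl and 221, 201 and 182 in shMORC2, a log2 fold change of 2.57 (SE 0.190, adjusted p = 8.27e-07). PCDHB8 had 41, 35 and 25 against 219, 155 and 182 (log2 fold change 2.44, adjusted p = 2.32e-06). In these 3 genes the lowest shMORC2 library had several times the count of the highest shCtrl library.

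The other beta genes called higher had fewer counts. PCDHB13 had 15, 18 and 10 against 93, 68 and 46 (log2 fold change 2.24, adjusted p = 0.000185). PCDHB11 had 12, 12 and 16 against 58, 41 and 56 (1.92, adjusted p = 0.000360). PCDHB10 had 26, 23 and 23 against 88, 73 and 71 (1.67, adjusted p = 0.000120). The groups stood apart in each of the 3 genes, with a wider spread among the shMORC2 libraries of PCDHB13 than in the others. PCDHB7 had 8, 6 and 9 against 28, 26 and 34 (1.90, adjusted p = 0.00151), and PCDHB9 had 22, 33 and 22 against 76, 54 and 66 (1.33, adjusted p = 0.00164). PCDHB9 had the smallest fold change of the beta genes tested, and PCDHB7 the lowest counts.

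**Figure D2:**
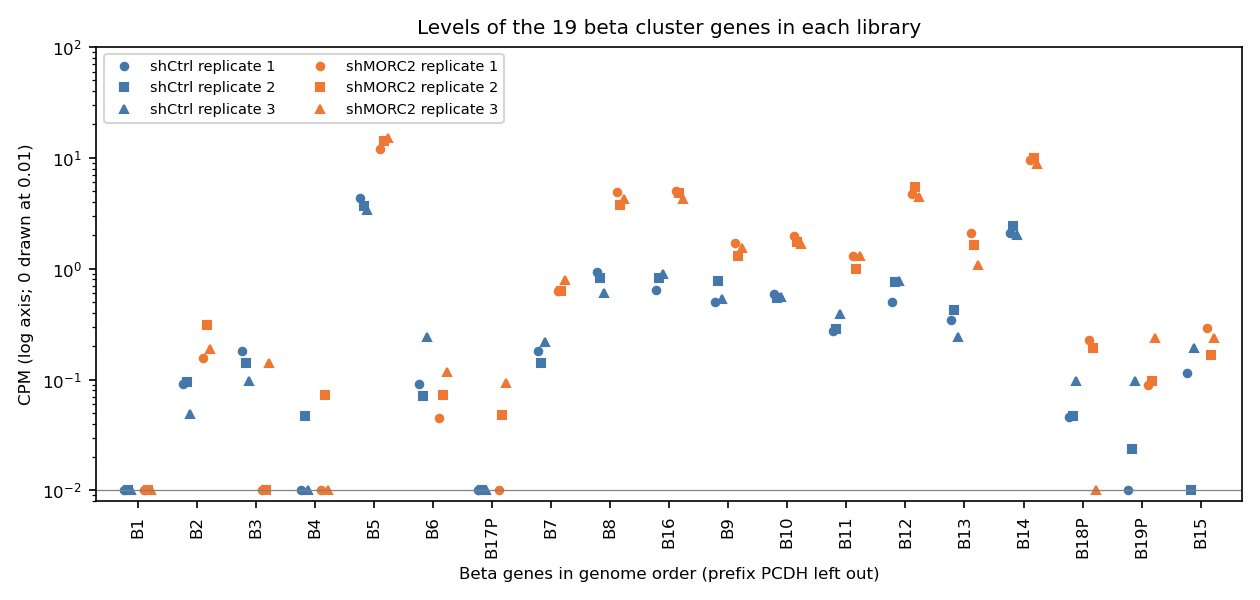
Level of each of the 19 beta genes in each library, in CPM on a log axis, in genome order, with blue for shCtrl and orange for shMORC2 and 1 marker shape per replicate number. Libraries with 0 counts are drawn at 0.01. The 10 tested genes show orange above blue in all libraries, and the 9 others stay at 13 counts or fewer in any library.

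A change in the 9 beta genes that failed the filter was not detectable at this depth, since none exceeded 13 counts in a library. PCDHB2 had 4, 4 and 2 counts against 7, 13 and 8, and PCDHB15 had 5, 0 and 8 against 13, 7 and 10. PCDHB6 had 4, 3 and 10 against 2, 3 and 5. The groups overlapped in PCDHB6 and PCDHB15, and stood apart by a few counts in PCDHB2. Among the pseudogenes, PCDHB18P had 2, 2 and 4 counts against 10, 8 and 0, and PCDHB19P had 0, 1 and 4 against 4, 4 and 10. PCDHB1 had 0 counts in all 6 libraries, where the 3 counts taken as the limit of detection correspond to about 0.0684 CPM in shCtrl replicate 1. These values cannot show whether the shared promoter string follows the calls, since every beta gene that was tested was called. Of the 12 beta genes that hold it, 8 were called higher and the 4 others, PCDHB2, PCDHB3, PCDHB4 and PCDHB15, failed the filter.

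Per kilobase of exon, the order of the beta genes in shCtrl was led by PCDHB5 (1.12 CPM per kb), PCDHB14 (0.451) and PCDHB8 (0.288). In shMORC2 it was led by PCDHB5 (4.05), PCDHB14 (1.96), PCDHB8 (1.57) and PCDHB12 (1.25). The same genes were therefore at the head in both groups, with PCDHB12 at 0.175 CPM per kb in shCtrl. As a share of all beta counts, PCDHB5 was 35.2% ± 4.05 in shCtrl and 30.8% ± 3.55 in shMORC2, ranges that overlap. PCDHB12 went from 6.28% ± 1.51 to 10.8% ± 1.02 (SD, n = 3), with no overlap. The 5 beta genes PCDHB5, PCDHB14, PCDHB12, PCDHB16 and PCDHB8 together made up 76.2% ± 2.07 and 82.8% ± 1.59.

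Near-identical sequence limits how firmly 4 of these genes can be told apart. In PCDHB8, 25.7% of all windows of 100 exon bases were found letter for letter in another member, mostly in PCDHB13, and in PCDHB10 the figure was 24.7%, mostly in PCDHB9. It was 15.1% for PCDHB13 and 10.7% for PCDHB9, and between 2.62% and 6.51% for the other 6 beta genes tested. Noncoding genes also overlap beta exons, over 24.9% of the exon bases of PCDHB16 and 14.7% of those of PCDHB5. The library kit was stranded, but the strand setting of the counting is not given in the sources used here, so reads of overlapping genes cannot be told apart.

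In the gamma cluster, 22 genes carry the constant exons and all 22 were called higher, with log2 fold changes between 1.33 and 1.501 and adjusted p between 5.21e-07 and 2.48e-06. These 22 calls are not 22 separate measurements. In the shCtrl libraries no gamma gene with the constant exons had fewer than 415, 532 and 471 counts, and in the shMORC2 libraries none had fewer than 1158, 1391 and 1287. In the median gene of a library, this lowest value made up between 98.3% and 98.9% of the count.

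**Figure D3:**
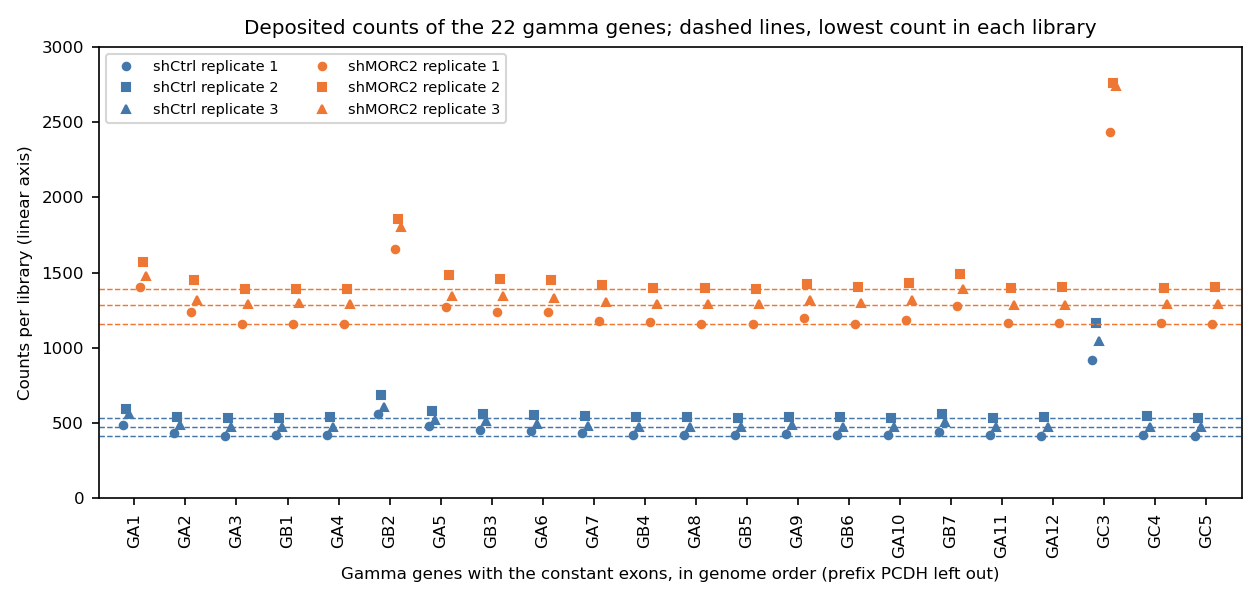
Deposited counts of the 22 gamma genes with constant exons in each library, on a linear axis, in genome order, with blue for shCtrl and orange for shMORC2. Dashed lines mark the lowest count among the 22 genes in each library (415, 532 and 471 in shCtrl; 1158, 1391 and 1287 in shMORC2), on which most genes lie, while PCDHGC3 and PCDHGB2 stand above it.

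The common part was therefore taken once, as the lowest count among the 22 genes in each library, and each gene kept what it had above it, called its own reads here. This split was chosen after the counts were seen. As 1 measurement, the common gamma reads rose from 11.2 ± 1.58 to 29.9 ± 3.67 CPM (SD, n = 3), a log2 fold change of 1.42 (SE 0.120, adjusted p = 2.40e-06). Counted in this way, the whole gamma cluster rose from 35.5 ± 3.06 to 90.9 ± 4.68 CPM, a log2 ratio of 1.36. With the deposited counts simply summed, the same reads enter up to 22 times and the sum went from 270 ± 36.1 to 719 ± 81.6 CPM, a log2 ratio of 1.41.

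On their own reads, 11 gamma genes passed the filter and 10 of these were called higher, where 19.9% of all 20981 genes tested in that fit were higher. PCDHGA2, PCDHGA9 and PCDHGA10 passed through their shMORC2 libraries alone, so that they could be tested only because they were high there. These 3 are among the genes called and add no support to the count. The groups did not overlap in 9 of the 11, and 8 of the 10 had a log2 fold change of at least 1, with these 3 genes in both counts. On deposited counts, 25.1% of all genes tested had every shMORC2 library above every shCtrl library. A call with a log2 fold change of at least 1 was reached there by 4.92%. Clustered protocadherins called higher then numbered 20, namely 10 beta and 10 gamma genes, in place of 32. Gamma A and gamma B genes differ in the sequence class of their variable exon, and the gamma C genes at the end of the cluster are the C-type isoforms, which stand apart in the family.

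PCDHGC3, a C-type gene, had most own reads, with 504, 632 and 578 in shCtrl and 1277, 1370 and 1457 in shMORC2. It rose from 13.5 ± 1.79 to 32.0 ± 2.84 CPM, a log2 fold change of 1.24 (SE 0.109, adjusted p = 3.09e-06). PCDHGC3 made up 55.6% ± 4.0 of all own gamma reads in shCtrl and 52.7% ± 3.9 in shMORC2 (SD, n = 3), and the ranges overlapped. The other C-type genes, PCDHGC4 and PCDHGC5, had too few own reads for a test.

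PCDHGB2 had 146, 156 and 137 own reads against 496, 463 and 515, a log2 fold change of 1.73 (SE 0.117, adjusted p = 4.43e-07). The libraries of a group were close together and the groups far apart. The share of PCDHGB2 in the own gamma reads went from 14.3% ± 0.876 to 18.9% ± 0.887, with every shMORC2 library above every shCtrl library. PCDHGB7 had 28, 28 and 35 own reads against 120, 97 and 102 (log2 fold change 1.79, SE 0.217, adjusted p = 3.93e-05). PCDHGB3 had 38, 28 and 41 against 80, 64 and 57 (0.89, SE 0.247, adjusted p = 0.0116), the smallest fold change of the 3 gamma B genes tested.

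Among the gamma A genes, PCDHGA1 at the start of the cluster had 75, 61 and 92 own reads against 246, 179 and 192 (log2 fold change 1.41, SE 0.189, adjusted p = 8.33e-05). PCDHGA10 had the largest fold change, with 4, 2 and 3 own reads against 26, 39 and 29 (3.32, SE 0.464, adjusted p = 0.000115). It passed the filter through its shMORC2 libraries alone. Its shCtrl libraries were so low that the ratio of its summed reads is uncertain. That ratio, 9 against 94, was 10.3 with a 95% exact interval of 5.22 to 23.3. The interval covers counting error only and takes every read as independent. The frequencies of low counts, given with the processing, put that in doubt, so the interval may be too narrow. PCDHGA10 went from 0.295% ± 0.110 to 1.21% ± 0.279 of the own gamma reads, with no overlap.

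PCDHGA2 had 16, 8 and 19 own reads against 83, 59 and 32 (log2 fold change 1.99, adjusted p = 0.00165). PCDHGA9 had 10, 10 and 14 against 41, 34 and 34 (1.65, adjusted p = 0.00176). PCDHGA6 had 32, 19 and 25 against 83, 63 and 44 (1.30, adjusted p = 0.00382). The groups stood apart in these 3 genes, although the shMORC2 libraries of PCDHGA2 spread widely. PCDHGA5 had 65, 48 and 47 own reads against 117, 95 and 57 (0.73, adjusted p = 0.0377), and its groups overlapped. PCDHGA7 had 18, 15 and 11 against 20, 25 and 16 (0.46, SE 0.373, adjusted p = 0.354) and did not pass the test.

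**Figure D4:**
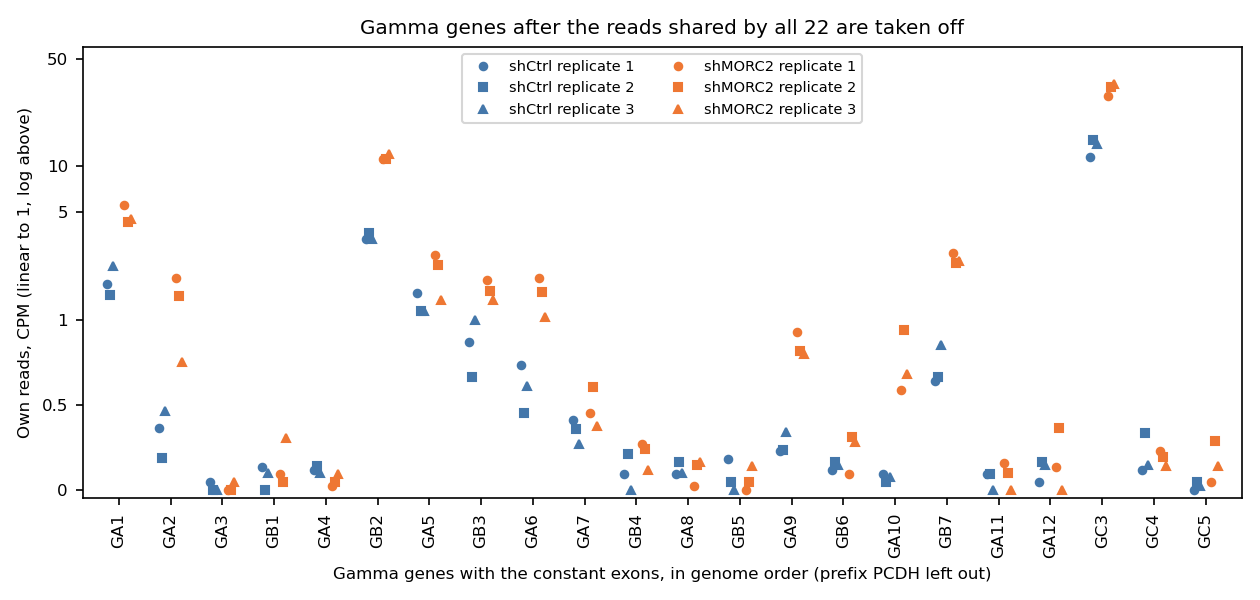
Own reads of the 22 gamma genes in each library after the reads common to all 22 are taken off, in CPM on an axis that is linear to 1 and logarithmic above, in genome order, with blue for shCtrl and orange for shMORC2. PCDHGC3 and PCDHGB2 are the highest genes in every library, and PCDHGA3 and PCDHGA4, among others, are near 0 in all. The lowest gene of each library is at 0 by construction.

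The 11 remaining gamma genes with constant exons were not tested, none having more than 15 own reads in a library. Their deposited counts were thus almost wholly common reads. Whether the gamma promoter string follows the calls could not be told, since many of the genes were not tested. Of the 9 genes that hold it, 3 were called higher on own reads, 1 was tested without a call and 5 were not tested. Of the 9 without it, 6 were called and 3 were not tested. Of the gamma pseudogenes, which lack the constant exons, PCDHGB8P had 7, 4 and 6 counts against 20, 10 and 6, and PCDHGB9P at most 8.

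Per kilobase, the levels of variable and constant exons can be set side by side. The common reads over the 2181 shared bases came to 5.12 ± 0.723 CPM per kb in shCtrl and 13.7 ± 1.68 in shMORC2. The own reads of the 22 genes, each divided by its own exon length and then summed, came to 7.62 ± 0.524 and 19.2 ± 0.437 CPM per kb (SD, n = 3). Both measures were higher in every shMORC2 library. PCDHGC3 led the own levels with 4.15 and 9.84 CPM per kb, followed by PCDHGB2 with 1.33 and 4.43 and PCDHGA1 with 0.441 and 1.18.

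Alpha genes were near the limit of these libraries. The 15 alpha genes with constant exons had log2 fold changes between 0.38 and 0.84 with adjusted p between 0.208 and 0.477, and 0 of them were called by edgeR, 0 also at an unadjusted p under 0.05 and 0 by DESeq2. The lowest count among the 15, taken as their common reads, was 7, 10 and 4 in shCtrl and 6, 15 and 13 in shMORC2, and the groups overlapped. As 1 measurement, these reads had a log2 fold change of 0.68 (SE 0.526, adjusted p = 0.330).

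PCDHAC2, a C-type alpha gene, had most own reads of the alpha cluster, with 7, 6 and 8 against 6, 6 and 9. The other 14 had between 0 and 4 own reads in any library. PCDHA10 and PCDHAC2 marked the ends of the alpha range on deposited counts, with log2 fold changes of 0.84 (SE 0.503, adjusted p = 0.208) and 0.38 (SE 0.394, adjusted p = 0.477). None of the alpha genes had enough own reads for a test, so neither a change nor its absence in single alpha genes could be shown at this depth. The pseudogene PCDHA14, whose whole span lies in an exon of PCDHA10, had 2 counts in 1 shMORC2 library and 0 elsewhere.

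Genes that are not protocadherins but lie between the first alpha and the last gamma gene were compared in the same way. Of 25 such genes, 7 passed the filter and all 7 were called higher, where 19.9% of all genes tested were higher. In 5 of these, noncoding genes named CH17-140K24, between 82.9% and 100% of the exon bases lie in exons of members. Their log2 fold changes of 1.88 to 2.28 cannot be told apart from those of the members they overlap. Among them, CH17-140K24.7 had 10, 12 and 16 counts in shCtrl against 64, 74 and 50 in shMORC2. Its shCtrl libraries alone would not have taken it past the filter. The other 2 genes called share no exon base with a member. TAF7, which encodes a subunit of the general transcription factor TFIID and lies between the beta and gamma clusters, had 8699, 8490 and 8483 counts against 14451, 16012 and 14898. It rose from 202 ± 4.0 to 353 ± 29.6 CPM, a log2 fold change of 0.81 (SE 0.0784, adjusted p = 6.24e-06). AC005618.6, named only by its identifier, had 68, 47 and 50 counts against 192, 155 and 172 (log2 fold change 1.64, adjusted p = 2.02e-05).

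Within 500 kb on either side of the 3 clusters the genes did not move one way. Of 47 such genes, 30 passed the filter, 4 were called higher and 6 lower, where 19.9% and 19.6% of all genes tested were, so the count is no result about the flanking genes. NDUFA2, a subunit of mitochondrial complex I, had the largest rise, from 840, 705 and 781 counts to 1473, 1506 and 1706 (log2 fold change 0.997, adjusted p = 5.49e-06). HARS, a histidyl-tRNA synthetase, rose by 0.44 on the log2 scale (adjusted p = 0.000701). KIAA0141 fell by 0.46 on the log2 scale (adjusted p = 0.000445) and TMCO6 fell by 0.55 (adjusted p = 0.00562).

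Protocadherins outside the clusters were less uniform. Of 12 genes, 6 passed the filter, and PCDH9 and PCDH18 were called higher and PCDH12 lower. Over all genes tested, 19.9% were higher and 19.6% lower, so with 6 genes the count is no result about this list. PCDH9 had 129, 136 and 115 counts against 242, 186 and 180 (log2 fold change 0.66, adjusted p = 0.00430), and PCDH18 had 10, 6 and 0 against 22, 38 and 32 (2.49, SE 0.587, adjusted p = 0.00455). The groups stood apart in both, but PCDH18 passed the filter through its shMORC2 libraries alone, so that it could be tested only because it was high there. PCDH12, which lies on the same chromosome beyond the gamma cluster, had 43, 42 and 41 counts against 28, 27 and 20 (-0.76, adjusted p = 0.0447), a call that 10 of 15 other settings lost, each left-out library among them. The call of PCDH9 was lost with limma. PCDH1, PCDH19 and PCDH20 had log2 fold changes of -0.22, -0.48 and -0.056 and did not pass the test. With a library left out, PCDH1 lay between -0.41 and -0.054, past the threshold without shCtrl replicate 1 (edgeR, adjusted p = 0.0385), and PCDH19 between -0.85 and -0.030.

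Genes that act on clustered protocadherins were taken as 3 lists. Over all genes tested, 39.5% were called in either direction and 19.6% lower, the background to the counts that follow. Of 12 genes of CTCF and cohesin, 4 fell, with STAG2 first at a log2 fold change of -0.51 (adjusted p = 0.000698), then RAD21 at -0.32, PDS5A at -0.26 and WAPL at -0.22. STAG2 and RAD21 are cohesin subunits, PDS5A regulates cohesin and WAPL releases it from DNA. With a library left out, the call of PDS5A was lost in 4 of 6 fits and that of WAPL in 5 of 6. Of 19 genes of chromatin and DNA methylation silencing, 7 fell and 1 rose, the targeted gene included. Besides MORC2, the targeted gene, the smallest adjusted p belonged to ATF7IP, a partner of the methyltransferase SETDB1, at -0.41 (adjusted p = 0.000964), to DNMT3A, a de novo DNA methyltransferase, which rose by 0.34 (adjusted p = 0.00317), and to SMCHD1, a chromatin protein of long-range silencing, at -0.51 (adjusted p = 0.00569, a call lost with limma). DNMT3B, the other de novo DNA methyltransferase of the list, fell by 0.34 (adjusted p = 0.0102). None of these changes reached 1 on the log2 scale.

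Of 17 genes for cytoplasmic partners of the proteins and for the proteases that cut them, 4 rose and 7 fell, where 19.9% of all genes tested were higher and 19.6% lower. CYFIP2 and CYFIP1, paralogous subunits of the WAVE complex, which binds the tails of many protocadherins, went in opposite directions. CYFIP2 had 2780, 2706 and 2602 counts against 4935, 4394 and 4775 (log2 fold change 0.79, adjusted p = 3.42e-06). CYFIP1 had 6791, 6779 and 6939 against 4928, 4975 and 5005 (-0.48, adjusted p = 0.000228). PSENEN and NCSTN, both subunits of the gamma-secretase that cleaves protocadherins in the membrane, rose by 0.68 (adjusted p = 0.000505) and 0.63 (adjusted p = 0.000543) on the log2 scale.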

How the data were processed

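RNA was measured in 6 libraries of SW480 cells, 3 shCtrl and 3 shMORC2. The authors deposited unnormalised counts for each gene, with its exon coordinates, and a table of RPKM. The deposited RPKM matched the counts divided by gene length and library total to within a relative departure of 9.28e-14. The submitters' processing notes name Trimmomatic 0.36, STAR 2.5.3a, featureCounts, Subread 1.5.1, edgeR 3.12.1 and the build GRCh38, with no role or order. How featureCounts treated strand, reads that fit several genes and molecular tags is not given in the sources used here. In each library, genes with 2 counts were 2.40 to 3.02 times as frequent as genes with 1 count. Tables of the authors' splicing comparisons were not used, and 0 sample columns came from outside the series.

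Genes were filtered with filterByExpr (minimum count 10), which left 21005 of 56303, scaled by TMM and tested with edgeR 4.0.16 (glmQLFit, glmQLFTest) in R 4.3.3 over all 6 libraries, with Benjamini-Hochberg adjustment over all genes tested and a threshold of 0.05. CPM are counts per 1000000 of the scaled library total. The SE is the log2 fold change divided by the square root of F. Statistics were tested on simulated data. Alternatives used DESeq2 1.42.0, limma 3.58.1 on log2(RPKM + 1) and log2(RPKM + 0.1) (mean RPKM 0.1 or more), no TMM, no filter, at least 10 counts in 3 libraries, a replicate block, each library left out in turn, and a minimum log2 fold change of 1.

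Same-numbered libraries deviated together from their group means (correlations 0.215, 0.111 and 0.102 for numbers 1, 2 and 3), and the pairing comes from these values, since no label says what a number stands for. Within-group libraries differed by more than sampling noise. The members and lists were chosen with earlier results of these data known. Named are MORC2, all members past the filter, members with at least 10 counts in any library, up to 4 called genes per context list and the tested non-clustered protocadherins. PCDHB1, PCDHB3, PCDHB4, PCDHA14, PCDHGB9P, HARS, TMCO6, KIAA0141, CH17-140K24.7, KRT8 and KRT18 were named in addition, after their values were seen. NEFL and DNMT3B were named in the same way.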

Additional observations from a re-analysis of the deposited data

How the results depend on the processing

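Of 581 values of single tested members under other settings, 580 kept their direction and their side of the threshold. The exception was PCDHB7 (adjusted p = 0.0523 with limma on log2(RPKM + 1)), where 31 members were called in place of 32. Gamma and alpha genes repeat the common reads of their cluster, so the 581 values are not separate measurements. The replicate block changed no call of a member. Each left-out library gave 32 members called higher, and the summed beta level kept a log2 ratio of 2.02 to 2.07 and the summed gamma level of 1.31 to 1.501. Counting the common reads once, which was chosen after seeing the data, left 20 members called higher, 10 of them gamma genes, and the same numbers, 20 and 10, with the replicate block. Among all genes, 8301 were called, 10287 with the block, 7566 with DESeq2, 6268 to 8433 with a library left out and 1627 at a log2 fold change of at least 1.

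The context lists moved more. Non-clustered protocadherins had 3 calls, 0 with limma at either pseudocount and 1 at a log2 fold change of at least 1. PCDH18 did not reach the minimum mean RPKM of the limma fits and was not tested in them. The log2 fold change of PCDH20 lay between -0.17 and 0.10 with a library left out, positive without shMORC2 replicate 2. The CTCF and cohesin list had 4 calls, 2 with limma at either pseudocount, 0 at a log2 fold change of at least 1 and between 2 and 6 with a library left out. At a log2 fold change of at least 1, the neighbours went from 17 calls to 6, the silencing list from 8 to 0 and the cytoplasmic partners from 11 to 0, by construction of a stricter rule. With the replicate block these lists had 6 (CTCF and cohesin), 11 (silencing), 13 (cytoplasmic partners) and 19 calls (neighbours). For limma the cause of the other lost calls was not tested. Depth limited the alpha genes, which were tested on at most 22 counts a library, and the 12 members that failed the filter.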
